A study of Mus musculus with 12 samples.

Results

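A set of 9 transcription factors that set and maintain myeloid identity, Spi1 (encoding PU.1), Runx1, Cebpa, Cebpb, Irf8, Irf5, Klf4, Maf and Gfi1, was examined in RAW 264.7 cells, a mouse macrophage-like line transformed by Abelson leukaemia virus. A member was read only from a transcript cluster, the array's unit of measurement for a gene, that carried its symbol and no other. Of the 41345 clusters in the table, 10 met this rule, for 8 of the 9 members. The only Irf5 cluster also named Tnpo3, so no value is given for Irf5. The 7 members whose signal lay above a level filter, the 40th percentile of all clusters, were tested among 14611 genes, and Maf lay below it. The arrays came from 3 groups of 4: cells transfected with Pre-miR-223, an oligonucleotide that adds miR-223, with Anti-miR-223, an inhibitor of miR-223, or with Scramble, an irrelevant control oligonucleotide. All cells were collected 48 h after transfection and differed in no other stated treatment. A single transformed line was measured, with no primary macrophages beside it.

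miR-223 is a microRNA made mainly in the granulocyte and monocyte lines, and C/EBPα and PU.1 are known activators of its gene. PU.1 and RUNX1 open the myeloid programme in progenitors, C/EBPα directs them towards granulocytes and monocytes, and C/EBPβ serves emergency granulopoiesis and activated macrophages. IRF8 and KLF4 favour monocytes, c-Maf and IRF5 act in mature macrophages, and GFI1, a repressor, favours granulocytes. The 3 comparisons, each of which shares a group with the others, asked whether raising or blocking miR-223 moved the mRNA of these factors.

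The mature arms of mouse miR-223 are shown because both oligonucleotides act on this miRNA. They lie on the plus strand of chromosome X (RefSeq, GRCm38.p6), at chrX:96242884-96242905 for the 3p arm and chrX:96242842-96242864 for the 5p arm. Capitals mark the seed, bases 2 to 8, and the seeds of the 2 arms differ. The labels do not say which arm the oligonucleotides were built on.
mmu-miR-223-3p: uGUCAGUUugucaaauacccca
mmu-miR-223-5p: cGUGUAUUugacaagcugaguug
Mir223 itself shared its only cluster with another symbol, so no value is given for it. Delivery of the oligonucleotides was not checked on these arrays.

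No member changed past the threshold in any comparison. In limma with Benjamini-Hochberg adjustment over all 14611 genes, 0 of 7 members passed an adjusted p of 0.05 in Pre-miR-223 against Scramble cells, in Anti-miR-223 against Scramble cells or in Pre-miR-223 against Anti-miR-223 cells. The share of all tested genes called was 0.0% in each of the 3 comparisons. At an unadjusted p under 0.05, limma marked 711 genes (4.87%) in the first comparison, 294 (2.01%) in the second and 528 (3.61%) in the third, and an ordinary linear model, also with 0 genes past the adjusted threshold, marked 706, 368 and 530. Among the members, this unadjusted level was passed by none in the first comparison, by none in the second and by Runx1 alone in the third. That tally turned without replicate 4 of Anti-miR-223, an array that stood apart: Spi1 and Runx1 then passed it in the first comparison and Runx1 missed it in the third, and limma's lowest adjusted p among them was 0.521. In that limma fit 1371 of the 14611 genes passed the unadjusted level in the first comparison, 978 in the second and 714 in the third. The array left out belongs to neither group of the first comparison. The differences of Spi1 (-0.31) and Runx1 (-0.20) there were therefore unchanged, and only the spread estimate shared by the groups moved. The tally also covers 1 cluster per gene, and a dimmer second cluster of Irf8 passed the unadjusted level in both comparisons with Pre-miR-223. Without Anti-miR-223 replicate 4 that cluster passed it against Scramble cells (limma unadjusted p = 0.00152) but not against Anti-miR-223 cells (limma unadjusted p = 0.115). Without Pre-miR-223 replicate 1 or 4 it missed the level in both, with limma unadjusted p of 0.0548 and 0.0521 against Scramble cells. Among the clusters used in the fit, the differences farthest from 0 in the comparisons with Pre-miR-223 were those of Spi1, 0.31 lower than in Scramble cells and 0.35 lower than in Anti-miR-223 cells on the log2 scale, while the dimmer Irf8 cluster was 1.17 and 0.99 higher.

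Before the single members, the arrays themselves need a description. Replicate 4 of Anti-miR-223 stood apart: its median correlation with the other arrays was 0.967, against 0.988 to 0.992 for the other 11. On that array, 629 tested genes (4.30%) lay more than 2-fold from their mean over all arrays, against at most 37 on any other. The first principal component of the tested genes held 48.8% of the variance, and this array scored 54.2 on it while the other 11 scored between -18.3 and 17.4. Values without this array are given beside those results of the Anti-miR-223 group that it turns or moves by more than 1.5 times. The defining markers of macrophages, among them Adgre1, Cd68, Csf1r, Lyz2 and Tyrobp, were above the level filter for 9 of 10 genes, and Mrc1 was below it. The summed log2 level of all 10 ran from 72.1 to 75.9 in Pre-miR-223 cells, from 72.7 to 78.3 in Anti-miR-223 cells and from 74.3 to 76.2 in Scramble cells. These ranges overlap, but of the 9 above the filter 8 were lower and 1 higher in Pre-miR-223 than in Scramble cells. Their median difference was -0.20, against -0.05 over all genes, of which 65.2% were lower, and 0 of them passed the adjusted threshold. Of the neutrophil markers, 3 of 9 were above the filter (Mpo, Elane and Ltf), and Ly6g, S100a8, S100a9, Camp, Ngp and Retnlg were below it. Above the filter were also 3 of 6 dendritic cell markers with a cluster of their own, 1 of 7 for B cells (Igll1), 4 of 6 for T cells, 0 of 6 for mast cells, 4 of 5 for erythroid cells and megakaryocytes, 4 of 7 for fibroblasts and 3 of 5 for epithelium. The median level of each of these other lists stayed between 1.51 and 2.51 on every array, close to the filter level of 2.01.

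Spi1 encodes PU.1, the ETS factor without which macrophages do not form. Its signal on the log2 scale was 7.89, 8.15, 7.61 and 7.65 in Pre-miR-223 cells, 7.97, 7.87, 8.28 and 8.59 in Anti-miR-223 cells, and 8.18, 8.40, 7.97 and 8.001 in Scramble cells, for replicates 1 to 4. The 2 lowest values of the 12 were Pre-miR-223 replicates 3 and 4 and the highest was Anti-miR-223 replicate 4, but replicate 2 of Pre-miR-223 lay among the Scramble arrays and the groups overlapped in all 3 comparisons. Group means were 7.83 ± 0.25 in Pre-miR-223 cells, 8.18 ± 0.33 in Anti-miR-223 cells and 8.14 ± 0.20 in Scramble cells (SD, n = 4 each). Spi1 was 0.31 lower in Pre-miR-223 than in Scramble cells, with a 95% interval of -0.68 to 0.05 (limma adjusted p = 0.921), which on the linear scale spans 0.625-fold to 1.03-fold. Fitted without Anti-miR-223 replicate 4, the interval was -0.61 to -0.02 (limma adjusted p = 0.521). Against Anti-miR-223 cells the Pre-miR-223 cells were 0.35 lower (interval -0.71 to 0.01, limma adjusted p = 0.946). Leaving out the outlying Anti-miR-223 array made this 0.21 lower (interval -0.53 to 0.11). The Anti-miR-223 cells differed from Scramble cells by 0.04 (interval -0.33 to 0.40), and by -0.10 without that replicate. In bulk RNA, fewer cells of a type and less RNA per cell cannot be told apart.

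Runx1 encodes the RUNX factor that starts definitive blood formation and that acts on an upstream element of the Spi1 gene. On the deposited scale it was the only tested member whose groups separated. The Runx1 signal was 6.52, 6.56, 6.46 and 6.44 in Pre-miR-223 cells, 6.58, 6.70, 6.78 and 7.13 in Anti-miR-223 cells, and 6.75, 6.80, 6.60 and 6.66 in Scramble cells. All 4 Pre-miR-223 values lay below all values of both other groups, narrowly: the highest was 6.56 in Pre-miR-223 cells, against a lowest of 6.58 in Anti-miR-223 and 6.60 in Scramble cells. The Anti-miR-223 and Scramble arrays overlapped. Groups that do not overlap were seen for 435 of all tested genes (2.98%) in Pre-miR-223 against Scramble cells and for 1 of 7 members, and for 244 genes (1.67%) and 1 of 7 members in Pre-miR-223 against Anti-miR-223 cells. In Anti-miR-223 against Scramble cells the share was 1.55% of all genes and 0 of 7 members. The separation depended on scaling, a check added after seeing the data: with every array centred on its median, 1 of 16 array pairs had the Pre-miR-223 value above the Scramble value and 1 of 16 had it above the Anti-miR-223 value, and after cyclic loess normalisation 2 of 16 pairs against Scramble did. It held in both comparisons after repeated quantile normalisation (0 of 16 pairs each), and against Anti-miR-223 after cyclic loess (0 of 16). Cyclic loess in turn separated Klf4, with the Pre-miR-223 value above the Scramble value in 16 of 16 pairs. Runx1 averaged 6.49 ± 0.06 in Pre-miR-223 cells, 6.80 ± 0.24 in Anti-miR-223 cells and 6.70 ± 0.09 in Scramble cells (SD, n = 4 each). The difference of Pre-miR-223 from Scramble cells was -0.20 (interval -0.45 to 0.04, limma adjusted p = 0.921), and it was -0.09 after cyclic loess. Fitted without the outlying Anti-miR-223 array, the interval was -0.40 to -0.01 (limma adjusted p = 0.524). The difference of Pre-miR-223 from Anti-miR-223 cells was -0.30 (interval -0.55 to -0.06, limma adjusted p = 0.946), and -0.19 (interval -0.40 to 0.02) without Anti-miR-223 replicate 4. Anti-miR-223 cells were 0.10 above Scramble cells (interval -0.15 to 0.35), and 0.01 below them without that replicate.

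**Figure D1:**
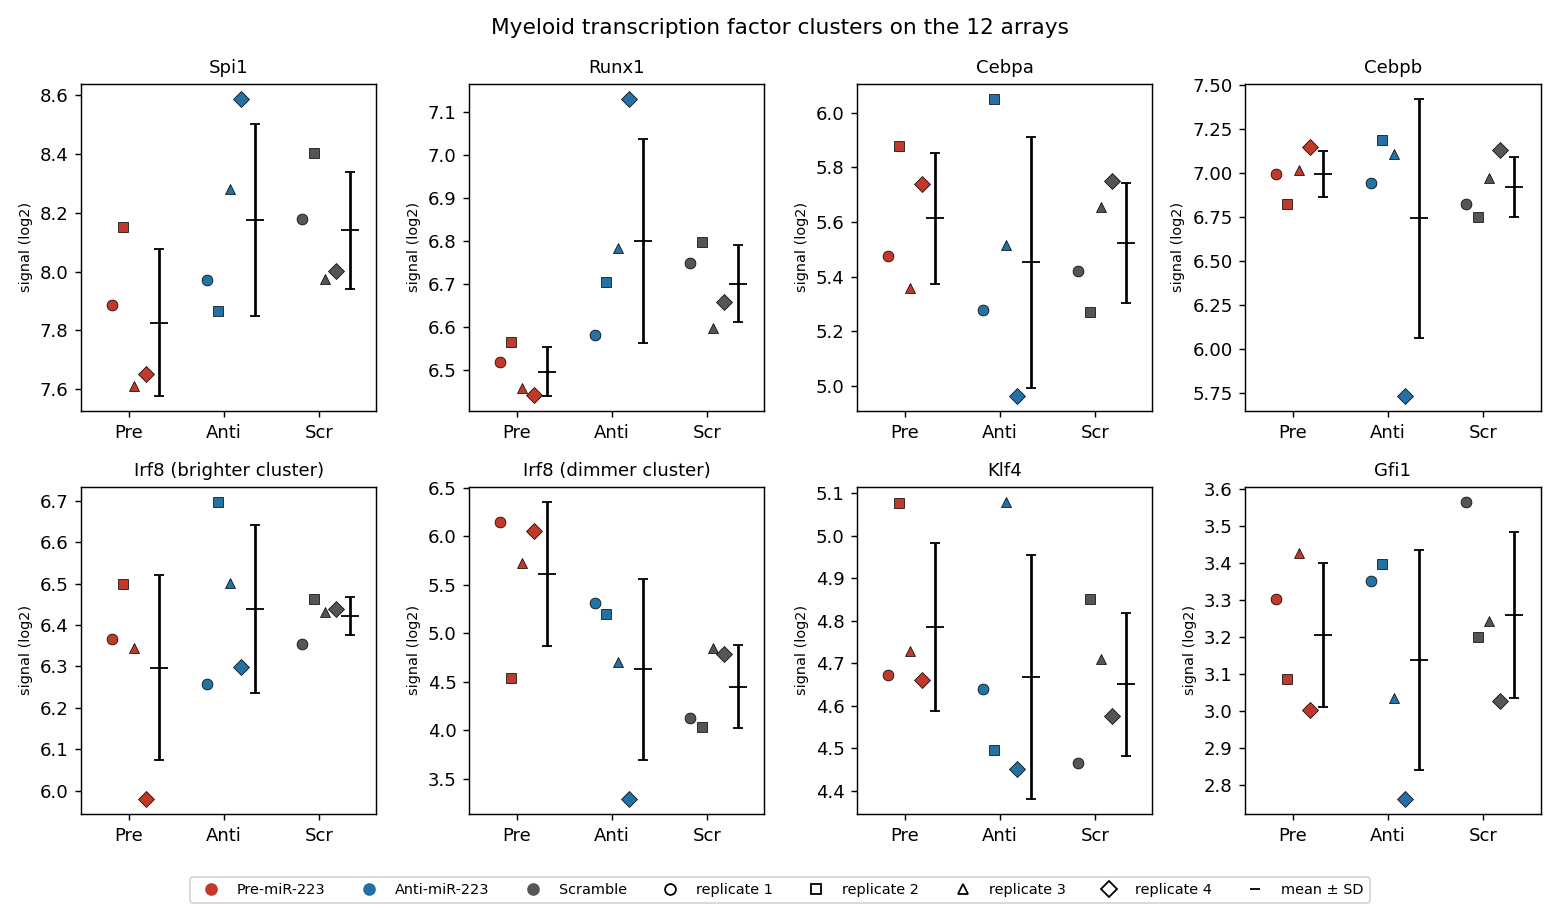
Signal on the log2 scale (vertical axes, scaled per panel) of the 8 measured clusters of the 7 tested members on the 12 arrays, in columns for Pre-miR-223, Anti-miR-223 and Scramble; each symbol is 1 array, its shape the replicate number, and the bar the mean ± SD of 4 arrays. Runx1 in Pre-miR-223 cells (highest value 6.56) lies below both other groups, and Anti-miR-223 replicate 4 is the lowest array for Cebpb at 5.73 and the highest for Spi1 at 8.59.

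Runx1 is transcribed from a distal and a proximal start, and its single cluster does not separate them. The windows from 250 bases before to 50 bases after both starts are shown because Runx1 is the member whose groups separated and because they differ in the letters of myeloid factor motifs (RefSeq, GRCm38.p6, minus strand of chromosome 16). In the distal window, chr16:92826025-92826324, capitals mark 2 matches to the RUNX letters TGTGGT, read here on the opposite strand. In the proximal window, chr16:92697280-92697579, capitals mark 1 match to the PU.1 letters GAGGAA, also on the opposite strand, and no other searched motif overlaps it. The proximal window also holds 2 matches to the KLF letters CACCC, left in small letters here.
Runx1 distal: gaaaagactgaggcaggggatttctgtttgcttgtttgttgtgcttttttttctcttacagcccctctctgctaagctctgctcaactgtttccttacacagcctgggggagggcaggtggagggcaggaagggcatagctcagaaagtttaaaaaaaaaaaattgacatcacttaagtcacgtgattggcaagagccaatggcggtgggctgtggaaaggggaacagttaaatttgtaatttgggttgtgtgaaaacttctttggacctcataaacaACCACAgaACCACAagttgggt
Runx1 proximal: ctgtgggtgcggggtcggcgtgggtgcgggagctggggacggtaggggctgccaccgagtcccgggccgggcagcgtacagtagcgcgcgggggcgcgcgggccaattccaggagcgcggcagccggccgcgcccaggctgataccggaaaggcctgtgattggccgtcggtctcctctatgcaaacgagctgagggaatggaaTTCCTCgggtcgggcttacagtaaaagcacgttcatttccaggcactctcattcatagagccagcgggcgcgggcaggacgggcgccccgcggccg
The distal window had a GC content of 45.0% with 2 CpG, and the proximal window 69.0% with 35 CpG. Promoter windows were matched for 7 members, 10 windows in all, with a median GC content of 68.2%, against 52.7% over all 32851 windows of the table, and a median of 32 CpG against 7. These are not the 7 tested members: Irf5 is included, and Spi1 and Maf had no window. Both strands were searched for the letters of each factor's motif. GAGGAA (PU.1) occurred in 28.3% of all windows and in 1 of the 10, and TGTGGT (RUNX) in 16.8% and in 1. TTNNGNAA (C/EBP) occurred in 40.7% of all windows and in 2 of the 10, those of Gfi1 and Irf5, and CACCC (KLF) in 57.5% and in 5. AAATCA (GFI1) occurred in 14.0% and in 2 windows, both of Irf8, TGCTGA (MAF) in 19.5% and in 2, and a pair of GAAA runs with 2 bases between them (IRF) in 3.44% and in none. In the Gfi1 window the C/EBP and MAF matches overlap. These matches describe letters in the windows and were not tested as binding sites.

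The C/EBP genes are single-exon genes whose products bind as dimers, C/EBPα as a brake on the cell cycle during granulocyte and monocyte commitment and C/EBPβ as an activator of cytokine and acute-phase genes. Cebpa had a signal of 5.48, 5.88, 5.36 and 5.74 in Pre-miR-223 cells, 5.28, 6.05, 5.52 and 4.96 in Anti-miR-223 cells, and 5.42, 5.27, 5.66 and 5.75 in Scramble cells. Its highest and lowest values were both in Anti-miR-223 cells and the groups overlapped. The Cebpa means were 5.61 ± 0.24 in Pre-miR-223, 5.45 ± 0.46 in Anti-miR-223 and 5.52 ± 0.22 in Scramble cells (SD, n = 4 each). Cebpa differed by 0.09 (interval -0.34 to 0.52, limma adjusted p = 0.975) between Pre-miR-223 and Scramble cells and by -0.07 (interval -0.50 to 0.36) between Anti-miR-223 and Scramble cells. For Pre-miR-223 minus Anti-miR-223 cells it was 0.16 (interval -0.27 to 0.59). Without Anti-miR-223 replicate 4 these last 2 differences were 0.09 and -0.0020, so their signs rested on that array.

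Cebpb read 6.99, 6.83, 7.02 and 7.15 in Pre-miR-223 cells, 6.95, 7.19, 7.11 and 5.73 in Anti-miR-223 cells, and 6.83, 6.75, 6.97 and 7.13 in Scramble cells. The other 11 arrays fell between 6.75 and 7.19, while Anti-miR-223 replicate 4 lay 1.26 below their mean. The means were 6.997 ± 0.13 in Pre-miR-223 cells, 6.74 ± 0.68 in Anti-miR-223 cells and 6.92 ± 0.17 in Scramble cells (SD, n = 4 each), and the Anti-miR-223 mean was 7.08 ± 0.12 without that array (SD, n = 3). Cebpb differed by 0.08 in Pre-miR-223 against Scramble cells (interval -0.46 to 0.61, limma adjusted p = 0.986). Anti-miR-223 minus Scramble was -0.18 (interval -0.71 to 0.35) on all arrays and 0.16 (interval -0.09 to 0.41) without the outlying array. Pre-miR-223 minus Anti-miR-223 was 0.25 (interval -0.28 to 0.78) on all arrays and -0.08 without it.

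IRF8 pairs with PU.1 on composite sites, directs progenitors to monocytes and dendritic cells and restrains granulocytes. The array holds 2 Irf8 clusters, and the one with the higher mean served as the Irf8 value in the fit. In this brighter cluster the signal was 6.37, 6.50, 6.34 and 5.98 in Pre-miR-223 cells, 6.26, 6.70, 6.50 and 6.30 in Anti-miR-223 cells, and 6.36, 6.46, 6.43 and 6.44 in Scramble cells. The Scramble arrays were close together, and both other groups spread to either side of them. Its difference was -0.12 for Pre-miR-223 against Scramble cells (interval -0.40 to 0.15, limma adjusted p = 0.935), 0.02 for Anti-miR-223 against Scramble cells (interval -0.26 to 0.29) and -0.14 for Pre-miR-223 against Anti-miR-223 cells (interval -0.42 to 0.13). Leaving out 1 array at a time moved the first between -0.19 (replicate 2 of Pre-miR-223) and -0.019 (replicate 4), and the third between -0.21 and -0.036 for the same arrays. The second was 0.064 with Anti-miR-223 replicate 4 left out and -0.069 with replicate 2 of that group left out.

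The dimmer Irf8 cluster behaved otherwise. It read 6.15, 4.54, 5.72 and 6.06 in Pre-miR-223 cells, 5.32, 5.21, 4.70 and 3.29 in Anti-miR-223 cells, and 4.13, 4.04, 4.85 and 4.79 in Scramble cells. Replicates 1, 3 and 4 of Pre-miR-223 were the highest of all 12 arrays, replicate 2 lay within the Scramble range, and Anti-miR-223 replicate 4 was the lowest. Means were 5.62 ± 0.74 in Pre-miR-223 cells, 4.63 ± 0.93 in Anti-miR-223 cells and 4.45 ± 0.43 in Scramble cells (SD, n = 4 each). In a limma fit of all clusters with 1 symbol, added after seeing the data, the cluster was 1.17 higher in Pre-miR-223 than in Scramble cells (interval 0.24 to 2.09, unadjusted p = 0.0172, adjusted p = 0.891), and 0.99 higher than in Anti-miR-223 cells (interval 0.06 to 1.91, adjusted p = 0.933). Leaving out 1 array at a time moved the first difference between 0.99 (Pre-miR-223 replicate 1 left out) and 1.53 (replicate 2 of that group left out). The second was 0.54 without Anti-miR-223 replicate 4 (interval -0.15 to 1.23). Anti-miR-223 minus Scramble was 0.18 (interval -0.75 to 1.10), 0.62 without that replicate and -0.05 without Anti-miR-223 replicate 1. The direction of Irf8 in Pre-miR-223 cells therefore differs between its 2 clusters, and neither difference passed the adjusted test.

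KLF4 is a zinc-finger factor that promotes monocyte formation, and GFI1 is a zinc-finger repressor that opposes PU.1 in the choice between granulocyte and monocyte. Klf4 had 4.67, 5.08, 4.73 and 4.66 in Pre-miR-223 cells, 4.64, 4.50, 5.08 and 4.45 in Anti-miR-223 cells, and 4.46, 4.85, 4.71 and 4.58 in Scramble cells. A single array stood high in Pre-miR-223 cells (replicate 2) and in Anti-miR-223 cells (replicate 3), and the groups overlapped. Klf4 averaged 4.78 ± 0.20 in Pre-miR-223 cells, 4.67 ± 0.29 in Anti-miR-223 cells and 4.65 ± 0.17 in Scramble cells (SD, n = 4 each). Its differences were 0.13 for Pre-miR-223 against Scramble cells (interval -0.19 to 0.45, limma adjusted p = 0.935), 0.02 for Anti-miR-223 against Scramble cells (interval -0.30 to 0.34) and 0.12 for Pre-miR-223 against Anti-miR-223 cells (interval -0.20 to 0.44). The first was 0.037 and the third 0.021 without Pre-miR-223 replicate 2. The second was 0.088 and the third 0.046 once Anti-miR-223 replicate 4 was left out, against -0.12 and 0.26 once replicate 3 of that group was.

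Gfi1 had 3.30, 3.09, 3.43 and 3.004 in Pre-miR-223 cells, 3.35, 3.40, 3.04 and 2.76 in Anti-miR-223 cells, and 3.57, 3.20, 3.24 and 3.03 in Scramble cells. The 3 ranges overlapped widely. Its differences were -0.05 for Pre-miR-223 against Scramble cells (interval -0.40 to 0.29, limma adjusted p = 0.983), -0.12 for Anti-miR-223 against Scramble cells (interval -0.46 to 0.22) and 0.07 for Pre-miR-223 against Anti-miR-223 cells (interval -0.27 to 0.41). Without Anti-miR-223 replicate 4 the second was 0.0029 and the third -0.06.

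Maf encodes c-Maf, which drives interleukin-10 in mature macrophages. Both of its clusters lay below the level filter, with means of 1.96 and 1.95 over the 12 arrays against a filter of 2.01, so no test was made. One cluster read 2.03, 1.97, 2.14 and 1.89 in Pre-miR-223 cells, 1.86, 2.01, 1.91 and 2.05 in Anti-miR-223 cells, and 2.14, 1.91, 1.75 and 1.89 in Scramble cells. The other read 1.93, 1.68, 1.87 and 2.37 in Pre-miR-223 cells, 2.51, 1.99, 2.03 and 1.54 in Anti-miR-223 cells, and 1.93, 1.58, 2.03 and 1.96 in Scramble cells. The clusters ran against each other over the arrays (r = -0.41, as a description), and Maf was not measured clearly above the floor of these arrays.

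**Figure D2:**
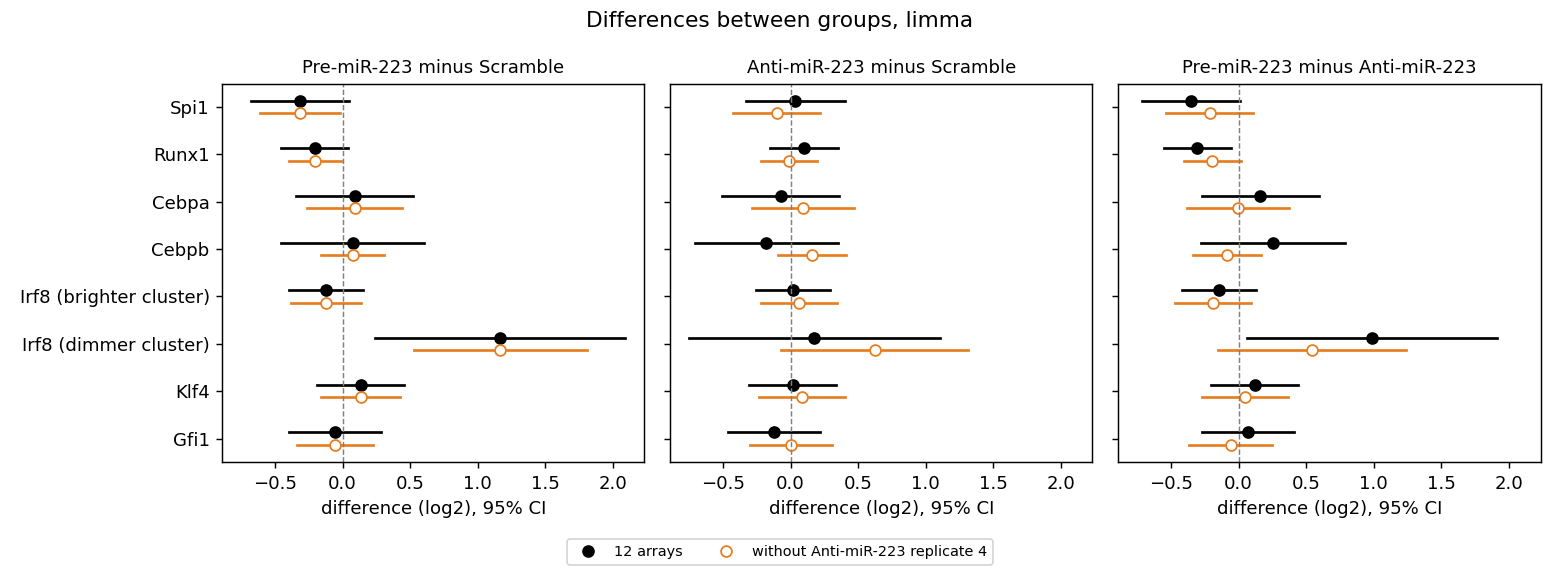
Differences between groups on the log2 scale (horizontal axis) with 95% intervals from limma, for the 7 tested members and the dimmer Irf8 cluster, in panels for Pre-miR-223 minus Scramble, Anti-miR-223 minus Scramble and Pre-miR-223 minus Anti-miR-223; filled points use 12 arrays, open points leave out Anti-miR-223 replicate 4. The interval of Runx1 in Pre-miR-223 minus Anti-miR-223 ends at -0.06 on 12 arrays and at 0.02 without that replicate.

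The intervals limit the size of a change in these samples. With 1 cluster per gene, for 7 of 7 members in each comparison they excluded a 2-fold change in either direction, as they did for 98.5%, 98.9% and 97.9% of all tested genes. This holds for Irf8 through its brighter cluster, since the intervals of the dimmer one (0.24 to 2.09 and 0.06 to 1.91 in the comparisons with Pre-miR-223) include a 2-fold change. A 1.5-fold change was excluded for 5 members in Pre-miR-223 against Scramble cells (82.8% of all genes), for 6 in Anti-miR-223 against Scramble cells (88.1%) and for 4 in Pre-miR-223 against Anti-miR-223 cells (82.9%). The members for which it was not excluded were Spi1 and Cebpb in the first comparison, Cebpb in the second, and Spi1, Cebpa and Cebpb in the third. As a group, 3 members were higher and 4 lower in Pre-miR-223 than in Scramble cells, with a median of -0.05 against -0.05 over all genes, of which 65.2% were lower. The counts were 4 higher and 3 lower in Anti-miR-223 against Scramble cells (median 0.02, all genes -0.01) and 4 higher and 3 lower in Pre-miR-223 against Anti-miR-223 cells (median 0.07, all genes -0.04). The last count turned without Anti-miR-223 replicate 4, to 1 higher and 6 lower (median -0.084, all genes -0.0084), and with array weights, to 2 higher and 5 lower (median -0.018). In Anti-miR-223 against Scramble cells the count was 5 higher and 2 lower without that array (median 0.064). Leaving out other single arrays also changed the sign of the median in each comparison, within -0.13 to 0.12 over all of them.

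The replicate spread differed from member to member. Cebpb had a within-group SD of 0.41, larger than that of 95.3% of tested genes, and without Anti-miR-223 replicate 4 it was 0.14, larger than that of 34.1%. Cebpa had 0.32 (88.2%), Spi1 0.26 (76.0%), Gfi1 0.24 (70.0%), Klf4 0.22 (62.9%), Irf8 0.18 (41.0%) and Runx1 0.15 (25.8%), against a median of 0.19 over all genes. The spread of Runx1 was 0.08 without the outlying array, larger than that of 3.96% of genes, beside a shift of -0.20 against Scramble cells.

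Spi1 and Runx1 moved together over the 12 arrays, with r = 0.887 (permutation p = 9e-05, 100000 resamples) and rho = 0.85 (permutation p = 0.00088). The permutations here and below shuffled all 12 arrays without regard to group, so they treat the arrays as interchangeable, the outlying array included. With 28 pairs of members and clusters compared, the adjusted values were 0.00103 and 0.0104. The relation held without the 2 arrays farthest from the median of Spi1, Scramble replicate 2 and Anti-miR-223 replicate 4 (r = 0.80), and after the group means were removed (r = 0.85). The dimmer Irf8 cluster ran opposite to Spi1, with r = -0.909 (permutation p = 5e-05, adjusted 0.00103) and rho = -0.92 (permutation p = 0.0001, adjusted 0.0028), and r = -0.82 without those 2 arrays. Such relations were not rare on these arrays: 2.92% of tested genes were at least as strongly related to Spi1 as Runx1 was, in either direction, and 1.46% as strongly as the dimmer Irf8 cluster. Runx1 also ran opposite to the dimmer Irf8 cluster (r = -0.874, permutation adjusted p = 0.00103). Cebpb ran opposite to Spi1 (r = -0.719) and with the dimmer Irf8 cluster (r = 0.722), both at a permutation adjusted p of 0.0152. For both, rho had an adjusted p of 0.114. Their r was -0.40 and 0.43 without Scramble replicate 2 and Anti-miR-223 replicate 4. The correlation of Cebpa with Cebpb was 0.70 (permutation p = 0.00569, adjusted 0.0266), with rho = 0.66 (adjusted 0.114). Pearson's r for this pair was 0.34 without the 2 arrays farthest from the median of Cebpa, Anti-miR-223 replicates 2 and 4, so that relation rested on them.

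These members also followed the first principal component. Pearson's r with its score was 0.887 for Spi1, 0.876 for Runx1, -0.920 for Cebpb and -0.878 for the dimmer Irf8 cluster, given as a description since every tested gene enters the component. Without Anti-miR-223 replicate 4 the values were 0.892, 0.655, -0.702 and -0.865. Correlations at least as far from 0 as that of Spi1 were found for 9.85% of tested genes, and for 5.67% as far as that of Cebpb. The component scores were -11.9, 7.49, -15.0 and -18.3 in Pre-miR-223 cells, -14.9, -17.3, 1.29 and 54.2 in Anti-miR-223 cells, and 3.23, 17.4, -4.82 and -1.42 in Scramble cells. Replicate 2 of Pre-miR-223 had the highest score of its group on this axis. It also had that group's highest Spi1 value and its lowest value of the dimmer Irf8 cluster. The part of this axis in the differences of Spi1, Runx1 and Irf8 was not tested.

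**Figure D3:**
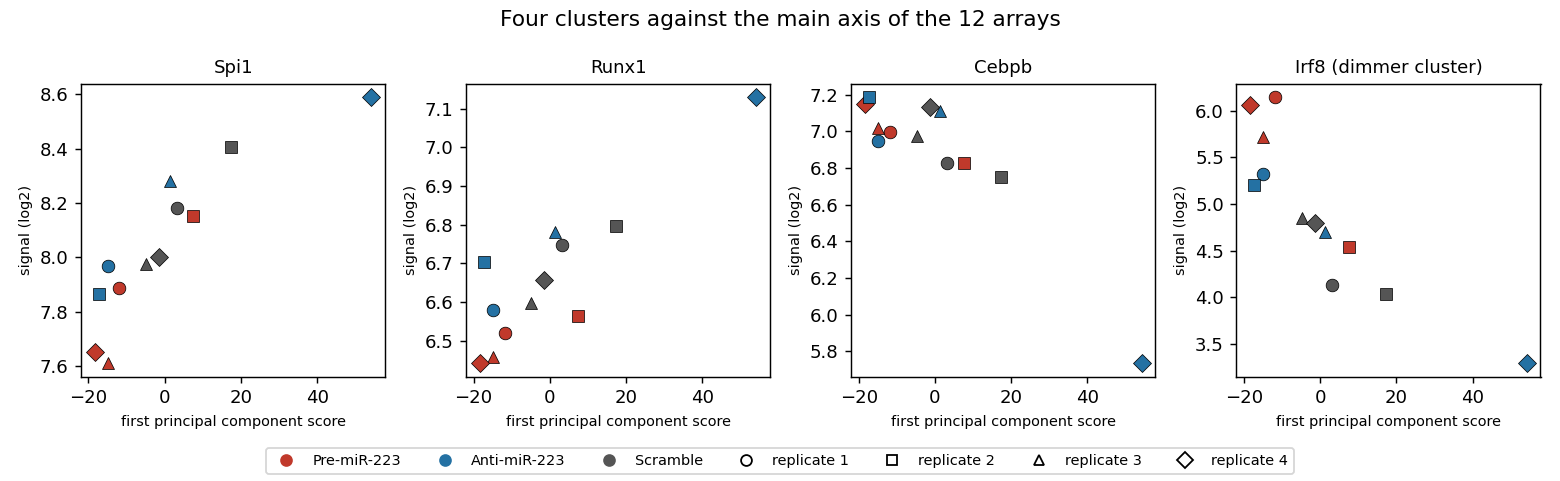
Signal on the log2 scale (vertical axes, scaled per panel) of Spi1, Runx1, Cebpb and the dimmer Irf8 cluster against the score of each array on the first principal component of the 14611 tested genes (horizontal axis, no unit); colour is the group, shape the replicate number. Spi1 and Runx1 rise along the axis and Cebpb and the dimmer Irf8 cluster fall, with Anti-miR-223 replicate 4 alone at a score of 54.2.

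For each member the single other gene with the highest positive r over the 12 arrays was looked up. Genes with predicted (Gm) or Rik symbols, olfactory and vomeronasal genes and small RNA genes were left out of this search and of its counts. Spi1 was closest to Ezr (r = 0.977; 0.958 without the 2 arrays farthest from the median), and Runx1 to Nsd3 (r = 0.975; 0.935). Gfi1 was closest to Sod3 (r = 0.933; 0.880) and Irf8 to Kifc5b (r = 0.916; 0.767). Weaker matches were Cebpa with Rpl17 (r = 0.867; 0.637) and Klf4 with Ier2 (r = 0.830; 0.736). Cebpb matched Atp5k at r = 0.966, but at 0.629 without the 2 farthest arrays. Once Anti-miR-223 replicate 4 was left out, the number of genes closer than the named one was 71 for Cebpb, 45 for Klf4, 12 for Cebpa, 4 for Spi1, 3 for Irf8, 1 for Runx1 and 0 for Gfi1. These are the highest of many correlations and are given as a description.

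The relatives and partners of the members were read from lists. None of their genes passed the adjusted threshold in limma in any comparison. Of all tested genes, 65.2% were lower in the first comparison (median -0.05), 52.5% in the second (-0.01) and 62.8% in the third (-0.04). Without Anti-miR-223 replicate 4 the median of all tested genes was -0.051 in the second and -0.0084 in the third. After cyclic loess the 3 medians were -0.0069, 0.0053 and -0.011. Each count below stands beside these values. Of 23 tested paralogues (other PU.1, C/EBP, RUNX, IRF, KLF, MAF and GFI family genes), 8 were higher and 15 lower in Pre-miR-223 than in Scramble cells. Their median was -0.08, against -0.05 over all genes, of which 65.2% were lower. Irf7, the interferon-induced regulator of type I interferon, averaged 5.28 ± 0.42 in Pre-miR-223 and 5.81 ± 0.23 in Scramble cells (SD, n = 4 each). Its difference was -0.52 (interval -0.92 to -0.13, limma adjusted p = 0.921). Groups did not overlap for 2 of the 23 paralogues in this comparison, against 2.98% of all tested genes. Irf9, the DNA-binding part of the interferon-stimulated complex, was among them. Its means were 5.60 ± 0.22 in Pre-miR-223 cells and 5.99 ± 0.10 in Scramble cells, a difference of -0.39 (interval -0.73 to -0.05). Irf7 was also 0.41 lower in Pre-miR-223 than in Anti-miR-223 cells (interval -0.80 to -0.02), and Klf9 0.37 lower, or 0.16 lower without Anti-miR-223 replicate 4. In Anti-miR-223 against Scramble cells 11 paralogues were higher and 12 lower (median -0.02), with Cebpg at 0.26, or 0.15 without replicate 4, and Runx3 at 0.19. Without that replicate 8 were higher and 15 lower (median -0.067), and after cyclic loess 13 and 10 (median 0.0035). In Pre-miR-223 against Anti-miR-223 cells 10 were higher and 13 lower (median -0.04), and after cyclic loess 12 and 11 (median 0.0095). Cyclic loess gave 11 higher and 12 lower (median -0.016) in the first comparison.

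Of 38 other blood and macrophage transcription factors, 7 were higher and 31 lower in Pre-miR-223 than in Scramble cells (median -0.10). Over all genes this median was -0.05, with 65.2% lower. In Anti-miR-223 against Scramble cells 16 factors were higher and 22 lower (median -0.01, all genes -0.01). In Pre-miR-223 against Anti-miR-223 cells 9 were higher and 29 lower (median -0.08, all genes -0.04, of which 62.8% were lower). Leaving out Anti-miR-223 replicate 4 made the second count 8 and 30 (median -0.063, all genes -0.051) and the third count 15 and 23 (median -0.018, all genes -0.0084). Cyclic loess made the first 15 and 23 (median -0.033, all genes -0.0069). Tfe3, a regulator of lysosomal genes, differed by -0.36 (interval -0.66 to -0.07) in the first comparison and by -0.31 (interval -0.60 to -0.01) in the third. Hhex, a homeobox factor of blood and endothelium, differed by -0.32 (interval -0.63 to -0.02) in the first. Jun was at 0.31 in the second, or 0.07 without Anti-miR-223 replicate 4, and Fosl2 at -0.22. Ikzf1, the Ikaros gene, was at -0.39 in the third, or -0.23 without that replicate. Of 18 cofactors and antagonists of the members, 3 were higher and 15 lower in the first comparison (median -0.09, all genes -0.05). In the second and in the third, 5 were higher and 13 lower (medians -0.04 and -0.05, all genes -0.01 and -0.04). After cyclic loess the first count was 10 higher and 8 lower with a median of 0.0078, so this direction rested on the scaling. With Anti-miR-223 replicate 4 left out the second count was 3 and 15 (median -0.12, all genes -0.051), and the third reversed to 12 and 6 (median 0.053, all genes -0.0084). Hdac3, a corepressor deacetylase, differed by -0.26 (interval -0.49 to -0.02) and Myd88, an adaptor that feeds IRF5, by -0.17 (interval -0.40 to 0.05) in the first comparison. Kdm1a, a GFI1 cofactor, was at -0.15 and Traf6 at 0.28 in the second (0.10 for Traf6 without replicate 4). In the third Cbfa2t3 was at -0.22 and Traf6 at -0.30 (-0.12 for Traf6 without replicate 4).

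Genes known as myeloid targets of PU.1, C/EBP and RUNX1, among them receptors, integrins and NADPH oxidase parts, were all measurable where they had a cluster of their own (32 of 32). Of these, 3 were higher and 29 lower in Pre-miR-223 than in Scramble cells, with a median of -0.18 against -0.05 over all genes. In Pre-miR-223 against Anti-miR-223 cells the counts were again 3 and 29 (median -0.22, all genes -0.04, of which 62.8% were lower), and in Anti-miR-223 against Scramble cells 17 and 15 (median 0.02). Both counts with Pre-miR-223 share its 4 arrays. After cyclic loess the first median was -0.076 with 10 higher and 22 lower, and without Scramble replicate 2 it was -0.0996 with 9 higher and 23 lower. Without Anti-miR-223 replicate 4 the third comparison had 11 higher and 21 lower (median -0.05, all genes -0.0084). The second then had 5 higher and 27 lower (median -0.14, all genes -0.051). On single arrays the median deviation of these genes from their mean was -0.18, 0.11, -0.16 and -0.27 in Pre-miR-223 cells, -0.12, -0.20, 0.06 and 0.56 in Anti-miR-223 cells, and 0.02, 0.22, -0.08 and 0.02 in Scramble cells. Anti-miR-223 replicate 4 and Scramble replicate 2 were the highest and Pre-miR-223 replicate 4 the lowest on this measure, as on the first principal component. Cd68, a lysosomal macrophage glycoprotein, averaged 9.61 ± 0.22 in Pre-miR-223 and 9.95 ± 0.15 in Scramble cells (SD, n = 4 each), a difference of -0.34 (interval -0.63 to -0.05). Ncf4, a cytosolic part of the NADPH oxidase, differed by -0.41 (interval -0.78 to -0.04). Coro1a, an actin-binding protein of leukocytes, averaged 7.48 ± 0.21 in Anti-miR-223 and 7.79 ± 0.11 in Scramble cells without overlap, a difference of -0.31 (interval -0.57 to -0.04). Groups did not overlap for 1 of the 32 genes in this comparison, against 1.55% of all tested genes. In the same comparison Btk, a cytoplasmic kinase, was at 0.15, or 0.059 without Anti-miR-223 replicate 4. In the third comparison Cd68 was at -0.27 and Fcgr1, the high-affinity IgG receptor, at -0.35, or -0.15 without replicate 4.

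Of 15 inflammatory target genes of IRF5, IRF8 and C/EBPβ, 6 were higher and 9 lower in Pre-miR-223 than in Scramble cells (median -0.06), 7 higher and 8 lower in Anti-miR-223 than in Scramble cells (median -0.02), and 4 higher and 11 lower in Pre-miR-223 than in Anti-miR-223 cells (median -0.05). The second was 6 and 9 (median -0.050) without Anti-miR-223 replicate 4. Socs3, a feedback inhibitor of cytokine signalling, averaged 4.79 ± 0.57 in Pre-miR-223 and 4.06 ± 0.27 in Scramble cells (SD, n = 4 each). Its difference was 0.73 (interval 0.11 to 1.35, limma adjusted p = 0.921). Against Anti-miR-223 cells Socs3 was also at 0.73 (interval 0.10 to 1.35), which became 0.49 with Anti-miR-223 replicate 4 left out. In the same comparison Il12b was at -0.22 (interval -0.42 to -0.01). Its means of 2.11 in Pre-miR-223 and 2.33 in Anti-miR-223 cells lay near the filter level of 2.01. Ccl5 differed by -0.28 in Pre-miR-223 against Scramble cells, and Arg1 by 0.34 and Cxcl10 by -0.21 in Anti-miR-223 against Scramble cells. The Arg1 difference was 0.54 without replicate 4, and the Arg1 mean in Scramble cells, 2.15, also lay near the filter level. Of 8 tested granule genes of the granulocyte line, 5 were higher and 3 lower in each comparison, with medians of 0.04, 0.02 and 0.02. Once Anti-miR-223 replicate 4 was left out the third was 2 higher and 6 lower (median -0.021) and the second 6 and 2 (median 0.053), and with array weights the third was also 2 and 6 (median -0.018). Their named members lay near the level filter and within 0.18 of no difference: Elane, neutrophil elastase, at -0.17, and Mpo, myeloperoxidase, at 0.09 in the first comparison, Elane at -0.18 and Ltf, lactoferrin, at 0.13 in the second, and Mpo at 0.08, or 0.039 without that replicate, and Ltf at -0.07 in the third.

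**Figure D4:**
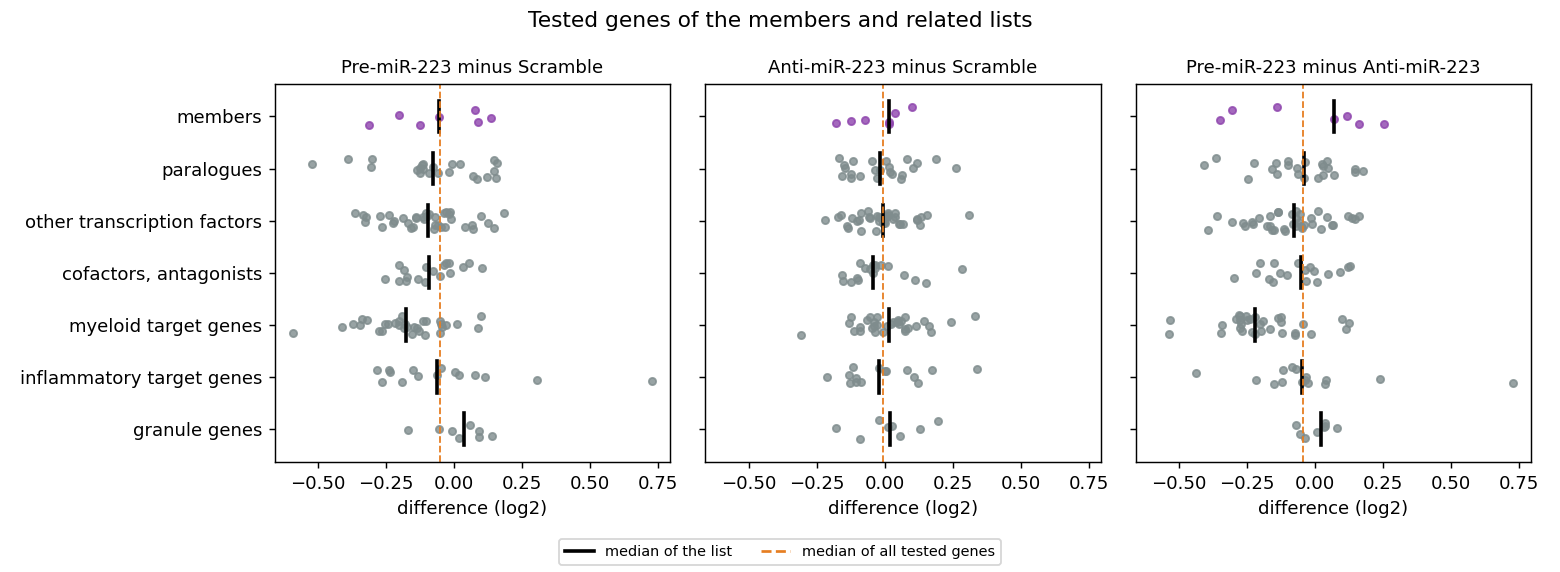
Differences on the log2 scale (horizontal axis) of the tested genes of the members and of 6 related lists (rows), in panels for Pre-miR-223 minus Scramble, Anti-miR-223 minus Scramble and Pre-miR-223 minus Anti-miR-223; each point is 1 gene, the black bar the median of the list and the dashed line the median of all tested genes. The medians of the members lie at -0.05, 0.02 and 0.07, and those of the myeloid target genes at -0.18, 0.02 and -0.22.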

How the data were processed

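Gene expression in 12 samples of RAW 264.7 cells, titled as biological replicates, was measured on Affymetrix whole-transcript arrays from total RNA. The authors deposited 1 table of log2 values; the log base is not written there and is taken as log2 from the RMA and Affymetrix Expression Console steps that, per the submitters' processing notes, were used with Partek. The scanner files were not analysed here, and quantile steps within RMA bring arrays closer to 1 distribution, which can hide a shift common to all genes. The number of arrays limits the precision, and since nothing states that replicates came from separate cultures, p-values measure only the spread between these samples. The table's values ran from 0.53 to 12.45, with array medians of 2.21 to 2.31, so the deposited arrays did not share 1 distribution exactly. Of 41345 clusters, 23521 had 1 gene symbol in the platform annotation, 1814 several and 16010 none. For each of 22180 symbols, the cluster with the highest mean was kept. The 14611 genes above the 40th percentile of the means of all 41345 clusters (2.01) were fitted in limma 3.58.1 under R 4.3.3. The fit used 1 model for the 3 groups (lmFit and eBayes, 9 residual degrees of freedom), 95% intervals and Benjamini-Hochberg adjustment over all tested genes. The script was tested on simulated data. No 2 of the 66 array pairs held identical values. Replicate numbers were no block in the fit, because same-numbered arrays did not deviate together. Alternatives were 3 other scalings, 2 other filters, other cluster rules, 5 other fits (ordinary linear model, trend and robust eBayes, array weights, only the compared groups, replicate block) and leaving out each array. The genes named are the members, the gene most similar to each member, and the 2 genes with the smallest p per list and comparison. The members and lists were chosen with earlier results of these data known. Sequences come from RefSeq tables (GRCm38.p6). The array's genome build is not given in the sources used here.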

Additional observations from a re-analysis of the deposited data

Results flagged for a closer look

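Among 30 groups of 4 arrays tested for an isolated value, 2 held one, where chance gives about 1 in 20. Cebpb in Anti-miR-223 replicate 4 was 5.73, against 6.95 to 7.19 in the other 3 arrays of that group, and this is the array that also stood apart over all genes. Klf4 in Pre-miR-223 replicate 2 was 5.08, against 4.66 to 4.73 in the other 3 arrays of that group. The causes were not tested.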

How the results depend on the processing

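Under every setting run, 0 members and 0 of all tested genes passed the adjusted threshold. At an unadjusted p under 0.05, the counts for the first comparison (Pre-miR-223 with Scramble), the second (Anti-miR-223 with Scramble) and the third (Pre-miR-223 with Anti-miR-223) were 711, 294 and 528 as reported. They were 1884, 623 and 793 with array weights (0.17 for Anti-miR-223 replicate 4), 1339, 248 and 338 with only the compared groups fitted, and 1371, 978 and 714 without Anti-miR-223 replicate 4. Same-numbered arrays did not pair: 4 of 12 pairs correlated above 0.1, and 2 of 12 arrays correlated best with their own number. With the replicate number as a block the counts were 547, 248 and 408, again with 0 calls.

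The median member difference in Pre-miR-223 against Scramble was 0.075 with the clusters of a gene averaged, where Irf8 changed sign, and ran from -0.13 to 0.044 over single left-out arrays. The signs of Runx1 and Spi1 in Pre-miR-223 against both other groups, and of Cebpb and Klf4 in Pre-miR-223 against Scramble, held under every setting. Averaged clusters gave Irf8 0.52 in Pre-miR-223 against Scramble and 0.42 against Anti-miR-223, and its dimmer cluster, chosen after seeing the data, 1.17 and 0.99. Array weights turned Cebpa (-0.045) and Gfi1 (0.055) in Pre-miR-223 against Scramble, Cebpb (0.027) and Gfi1 (0.012) in Anti-miR-223 against Scramble, and Cebpb (-0.0062) and Klf4 (-0.018) in Pre-miR-223 against Anti-miR-223. Over single left-out arrays, signs turned in Pre-miR-223 against Scramble for Cebpa (-0.00022 to 0.17) and Gfi1 (-0.13 to 0.048). In Anti-miR-223 against Scramble they turned for Cebpa (-0.27 to 0.091), Cebpb (-0.33 to 0.16), Gfi1 (-0.21 to 0.0029), Irf8 (-0.069 to 0.078), Klf4 (-0.12 to 0.088), Runx1 (-0.011 to 0.17) and Spi1 (-0.10 to 0.14). In Pre-miR-223 against Anti-miR-223 they turned for Cebpa (-0.0020 to 0.36), Cebpb (-0.084 to 0.40) and Gfi1 (-0.057 to 0.15). The causes were not tested. No rescaling turned the sign of a tested member, and cyclic loess brought Spi1 in Pre-miR-223 against Scramble to -0.20.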
